A study of Homo sapiens with 24 samples.

Results

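The genes described here encode the enzymes, membrane proteins and proton pump of the lysosome, 36 genes chosen by name, out of 31524 genes present in both deposited tables. They comprised 16 hydrolases with their activators, 5 proteins of the lysosomal membrane and 15 genes of the vacuolar H+-ATPase, the last made up of 5 V0 subunits, 8 V1 subunits and 2 accessory subunits. Their polyadenylated RNA was measured by RNA sequencing in 24 libraries of cells labelled SH-SY5Y, a human neuroblastoma line used as a model of dopaminergic neurons. The cells carried an overexpression construct for MCART1 (oeMCART1), its control construct (oeNC), a short hairpin RNA against MCART1 (shMCART1) or a scrambled hairpin (shScramble). Each kind of cell was sampled after 24 h with MPP+ at 0.5 mM, an inhibitor of complex I of the respiratory chain, and without it, which made 8 groups of 3 libraries. MCART1 is an older symbol of SLC25A51, the carrier that brings NAD+ into the mitochondrial matrix. The study's title asks how loss of this carrier alters cells under MPP+. Values are TPM, a transcript level scaled for length and to 1 total per library, from which neither the sequencing depth nor a counting interval can be had. The labels do not state that replicates are separate cultures, and a p-value then refers to the spread of the samples as deposited, which may be technical. The labels also do not say how the constructs were delivered or whether a line is 1 clone.

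Lysosomal hydrolases break down proteins, glycans and lipids delivered by endocytosis and autophagy, and they work at the acid pH that the V-ATPase maintains. In this pump the cytosolic V1 sector hydrolyses ATP and turns a rotor that drives protons through the membrane-embedded V0 sector, and both sectors can separate and rejoin. Many of these genes carry a CLEAR element, an E-box with the core CACGTG, and are known targets of the transcription factors TFEB and TFE3, and in dopaminergic neurons impaired lysosomal clearance is a known feature of Parkinson disease.

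The label of the cells was checked against 9 sympathoadrenal markers. In the 12 untreated libraries TH, the rate-limiting enzyme of dopamine synthesis, was at 0 in 12 of 12, PHOX2A, a transcription factor of the lineage, was at 0 in 11 of 12, and DBH reached at most 0.07 TPM. In the 12 libraries with MPP+, TH was at 0 in 11, while PHOX2A and DBH were not analysed there. HAND2, GATA3 and ISL1 were present at between 1.39 and 7.24 TPM over all libraries, and the summed level of the marker list ranged from 10.7 to 16.6 TPM with MPP+ and from 10.2 to 15.7 TPM without. Of the same list, CHGA was at 1.39 to 4.73 TPM with MPP+ and at 0.82 to 1.96 TPM without. CHGB was at 0.54 to 2.95 TPM with MPP+ and at 0.05 to 0.74 TPM without. The markers were thus mixed, as TH, PHOX2A and DBH go against the labelled line while others of the list were present at low levels. The growth protocol also names HEK293T cells. Which line was sequenced was not tested, so the cells are called here by their label only. The tissue label reads bone marrow. The summed level of 9 blood and marrow markers reached at most 3.37 TPM with MPP+ and 1.69 TPM without, and the leukocyte marker PTPRC reached at most 0.17 TPM.

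Of the 36 members, 25 were matched to RefSeq promoter windows of 300 bases (250 before and 50 after the start, build GRCh38.p14), and 10 of the 25 held the core CACGTG, which reads the same on both strands. Over all 35116 RefSeq promoters of that length the share was 7.26%. The longer palindrome TCACGTGA, which contains the core, was found in 6 of the 25 members and in 0.98% of all promoters. By role, 7 of 15 matched enzymes and membrane proteins and 3 of 10 matched pump genes held the core. CTNS and ATP6V1D, described at length below, held no core in their matched windows, and LAMP2, ASAH1, CTSB and ATP6V1A had no window matched. The windows of 6 of the 10 members with the core, whose levels are described below, are shown. They run from 100 bases before to 20 bases after the start, 5′ to 3′ on the strand of the gene, with the core in capitals:
MCOLN1, chr19:7522524-7522643, plus strand: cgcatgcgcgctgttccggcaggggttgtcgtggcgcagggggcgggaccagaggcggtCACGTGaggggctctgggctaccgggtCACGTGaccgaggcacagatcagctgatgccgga
CTSA, chr20:45891235-45891354, plus strand: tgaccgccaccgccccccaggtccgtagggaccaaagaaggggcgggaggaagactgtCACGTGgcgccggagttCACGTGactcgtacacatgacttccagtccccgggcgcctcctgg
GAA, chr17:80101481-80101600, plus strand: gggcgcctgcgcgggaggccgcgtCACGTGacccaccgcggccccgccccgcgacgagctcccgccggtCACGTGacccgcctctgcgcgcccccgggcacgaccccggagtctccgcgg
ATP6V0B, chr1:43974860-43974979, plus strand: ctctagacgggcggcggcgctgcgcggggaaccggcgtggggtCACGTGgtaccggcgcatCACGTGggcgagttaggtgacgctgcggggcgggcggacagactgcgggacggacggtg
ATP6V0D1, chr16:67481138-67481257, minus strand: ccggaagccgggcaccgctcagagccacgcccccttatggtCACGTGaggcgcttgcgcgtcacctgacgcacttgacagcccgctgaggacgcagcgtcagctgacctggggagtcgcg
ATP6V1G1, chr9:114587669-114587788, plus strand: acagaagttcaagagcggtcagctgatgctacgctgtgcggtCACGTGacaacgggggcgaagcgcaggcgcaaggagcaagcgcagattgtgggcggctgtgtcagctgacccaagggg
The core occurred 2 times in the windows of MCOLN1, CTSA, GAA and ATP6V0B and 1 time in those of ATP6V0D1 and ATP6V1G1. Without MPP+, ATP6V0B and GAA were lower and ATP6V1G1 higher in oeMCART1 cells, as given below, and a match of letters is not evidence that a factor binds there.

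The targeted gene was checked first. With MPP+, SLC25A51 was at 1008, 931 and 869.9 TPM in oeMCART1 cells, against 7.87, 8.15 and 9.44 TPM in oeNC cells. Untreated oeMCART1 cells had 697, 674 and 678 TPM, against 29.5, 35.7 and 29.7 TPM in untreated oeNC cells. The overexpression was 110-fold with MPP+ and 21.6-fold without. These fold values rest on controls of unlike level. Untreated oeNC cells, the reference for overexpression without MPP+, held 29.5 to 35.7 TPM, above the 10.5 to 11.3 TPM of untreated shScramble cells. With MPP+ oeNC cells held 7.87 to 9.44 TPM, beside 6.87 to 8.47 TPM in shScramble cells. Why SLC25A51 was higher in untreated oeNC cells was not tested. In shMCART1 cells with MPP+ SLC25A51 was at 5.12, 5.82 and 5.06 TPM, against 6.87, 8.38 and 8.47 TPM in shScramble cells. Untreated shMCART1 cells had 6.91, 9.45 and 5.47 TPM, against 10.5, 11.1 and 11.3 TPM in untreated shScramble cells. The hairpin left 67.5% of the control level with MPP+ and 66.5% without, and no library of one group reached into the other in any of the 4 comparisons (two-sided exact permutation test, p = 0.1, the smallest value that 3 against 3 libraries allow). In untreated cells the knockdown passed limma's threshold (log2 change of TPM + 1 -0.56 (SE 0.14, limma adjusted p = 0.0195)) but not without a filter on low values (adjusted p = 0.0561) or in a limma fit of only those groups (adjusted p = 0.0664).

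All 36 members were expressed above the filter of 1 TPM in at least 3 libraries, so none was lost from a test. Averaged over the 8 group means, PSAP, the precursor of the saposin activators of sphingolipid breakdown, had the highest level of the hydrolases at 256 TPM and CTSF, a cysteine protease, the lowest at 10.6 TPM. Among the membrane proteins the mean TPM ran from 62.5 for LAMP1, a major glycoprotein of the lysosomal membrane, to 11.2 for MCOLN1, a cation channel that releases lysosomal calcium. Of the V0 sector, ATP6V0B at 206 TPM and ATP6V0C at 205 TPM, both proteolipids of the rotating membrane ring, stood close together at the top, and ATP6V0A1, the subunit that forms the path of the protons, stood at the bottom with 52.7 TPM. The V1 sector was spread more widely, with 639 TPM for ATP6V1F, a subunit of the central stalk, and 9.72 TPM for ATP6V1C1, the subunit that bridges the sectors. The accessory subunits ATP6AP1 and ATP6AP2, which act in the assembly of the pump, averaged 152 and 43.6 TPM. In GENCODE 29, 14 of the 36 members share part of their span with a gene on the opposite strand, among them CTNS and ATP6V1D, and since it is not given whether counting used the strand, reads of such partners may be mixed.

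Overexpression under MPP+ was accompanied by higher levels of most members. Of the 36 members, 23 rose and 4 fell in oeMCART1 cells against oeNC cells, both with MPP+, that is 75.0% called against 60.9% of the 14895 genes tested (46.7% higher and 14.2% lower). A call means a limma p adjusted by the Benjamini-Hochberg method over all tested genes below 0.05 on the log2 scale of TPM + 1. The median change was 0.30 for the members and 0.26 for all genes. By group, 5 hydrolases rose and 3 fell, 4 of 5 membrane proteins rose, and in the pump 5 of 5 V0 subunits, 7 of 8 V1 subunits and both accessory subunits rose. Median-of-ratios scaling, which puts the all-gene median at -0.01, gave 12 higher and 13 lower members, with 2 hydrolases higher and 10 lower, 1 V0 subunit higher and 0 lower, and 6 V1 subunits higher and 1 lower, where 26.6% of all genes were higher and 29.3% lower. In bulk RNA, fewer cells with a high level and less RNA per cell cannot be told apart.

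Under MPP+, the median log2 change in oeMCART1 cells was 0.37 for the membrane proteins and 0.08 for the hydrolases. CTNS, which encodes cystinosin, the exporter of cystine from the lysosome (chr17:3636468-3661542, plus strand, GRCh38 with GENCODE 29), had 20.2, 20.9 and 21.5 TPM in oeMCART1 cells, against 11.5, 10.6 and 10.3 TPM in oeNC cells. For CTNS every oeMCART1 library lay above every oeNC library, and the log2 change was 0.89 (SE 0.10, limma adjusted p = 1.15e-05). LAMP2, a membrane glycoprotein needed for the fusion of autophagosomes with lysosomes, was at 32.3, 31.1 and 26.2 TPM in oeMCART1 cells, against 16.9, 17.5 and 13.4 TPM in oeNC cells. The LAMP2 groups did not overlap, and the log2 change was 0.87 (SE 0.10, limma adjusted p = 1.94e-05). No other membrane protein changed by more in this comparison. CTSA, a serine carboxypeptidase that also protects beta-galactosidase and sialidase, measured 29.3, 26.9 and 27.2 TPM in oeMCART1 cells, against 19.7, 18.8 and 19.8 TPM in oeNC cells. CTSA rose, with no overlap between the groups and a log2 change of 0.50 (SE 0.05, limma adjusted p = 1.19e-05). ASAH1, acid ceramidase, had 20.8, 20.1 and 20.6 TPM in oeMCART1 cells, against 12.7, 14.1 and 13.4 TPM in oeNC cells. For ASAH1 every oeMCART1 library lay above every oeNC library, and the log2 change was 0.58 (SE 0.07, limma adjusted p = 3.71e-05). HEXA, the alpha subunit of beta-hexosaminidase, was at 92.6, 98.8 and 102 TPM in oeMCART1 cells, against 76.6, 80.03 and 79.8 TPM in oeNC cells. The HEXA groups did not overlap, and the log2 change was 0.31 (SE 0.04, limma adjusted p = 8.37e-05). Median-of-ratios scaling moved HEXA to -0.02 (limma adjusted p = 0.788). SCARB2, an integral protein of the lysosomal membrane, measured 23.1, 22.4 and 19.3 TPM in oeMCART1 cells, against 16.4, 17.2 and 15.9 TPM in oeNC cells. SCARB2 rose, with no overlap between the groups and a log2 change of 0.37 (SE 0.07, limma adjusted p = 0.00087). GAA, acid alpha-glucosidase, which degrades glycogen, had 35.7, 35.99 and 38.6 TPM in oeMCART1 cells, against 42.7, 40.4 and 44.4 TPM in oeNC cells. For GAA every oeMCART1 library lay below every oeNC library, and the log2 change was -0.20 (SE 0.06, limma adjusted p = 0.0145). Of the other hydrolases, NEU1, the lysosomal sialidase, at -0.29 (SE 0.10, limma adjusted p = 0.0211) and CTSB, a cysteine protease, at -0.15 (SE 0.06, limma adjusted p = 0.0399) were the remaining members of this class that fell.

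In the pump, the changes in oeMCART1 cells under MPP+ were spread over the whole complex. ATP6AP2 was at 52.7, 50.01 and 44.9 TPM in oeMCART1 cells, against 26.3, 27.6 and 21.6 TPM in oeNC cells. The ATP6AP2 groups did not overlap, and the log2 change was 0.94 (SE 0.09, limma adjusted p = 6.18e-06). ATP6V1A, the catalytic ATP-binding subunit, measured 23.5, 22.6 and 19.2 TPM in oeMCART1 cells, against 11.4, 11.2 and 9.11 TPM in oeNC cells. ATP6V1A rose, with no overlap between the groups and a log2 change of 0.98 (SE 0.10, limma adjusted p = 6.71e-06). These were also the pump genes with the largest log2 changes in this comparison. ATP6V1G1, a subunit of the peripheral stalk, had 93.2, 92.4 and 85.7 TPM in oeMCART1 cells, against 61.1, 57.7 and 56.1 TPM in oeNC cells. For ATP6V1G1 every oeMCART1 library lay above every oeNC library, and the log2 change was 0.62 (SE 0.06, limma adjusted p = 8.02e-06). ATP6V1E1, another subunit of the peripheral stalk, was at 132, 128 and 120.1 TPM in oeMCART1 cells, against 83.1, 78.2 and 68.5 TPM in oeNC cells. The ATP6V1E1 groups did not overlap, and the log2 change was 0.72 (SE 0.07, limma adjusted p = 8.34e-06). Both of these stalk subunits moved the same way. ATP6V1B2, the non-catalytic nucleotide-binding subunit, measured 43.2, 39.3 and 36.4 TPM in oeMCART1 cells, against 25.5, 26.8 and 26.7 TPM in oeNC cells. ATP6V1B2 rose, with no overlap between the groups and a log2 change of 0.57 (SE 0.07, limma adjusted p = 2.39e-05). ATP6V1D, the shaft of the central rotor, had 28.5, 29.4 and 27.4 TPM in oeMCART1 cells, against 15.4, 17.8 and 12.6 TPM in oeNC cells. For ATP6V1D every oeMCART1 library lay above every oeNC library, and the log2 change was 0.87 (SE 0.11, limma adjusted p = 4.45e-05). The remaining V1 calls were ATP6V1C1, ATP6V1H and, in the other direction, ATP6V1F. ATP6AP1 was at 153, 147 and 157 TPM in oeMCART1 cells, against 137, 133 and 143 TPM in oeNC cells. The ATP6AP1 groups did not overlap, and the log2 change was 0.15 (SE 0.05, limma adjusted p = 0.0151). This last call turned to -0.18 (limma adjusted p = 0.0255) under median-of-ratios scaling. In the V0 sector ATP6V0D1, which couples the rotor to the proteolipid ring, changed by 0.61 (SE 0.09, limma adjusted p = 0.000102), and the other V0 subunits by 0.29 to 0.44.

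**Figure D1:**
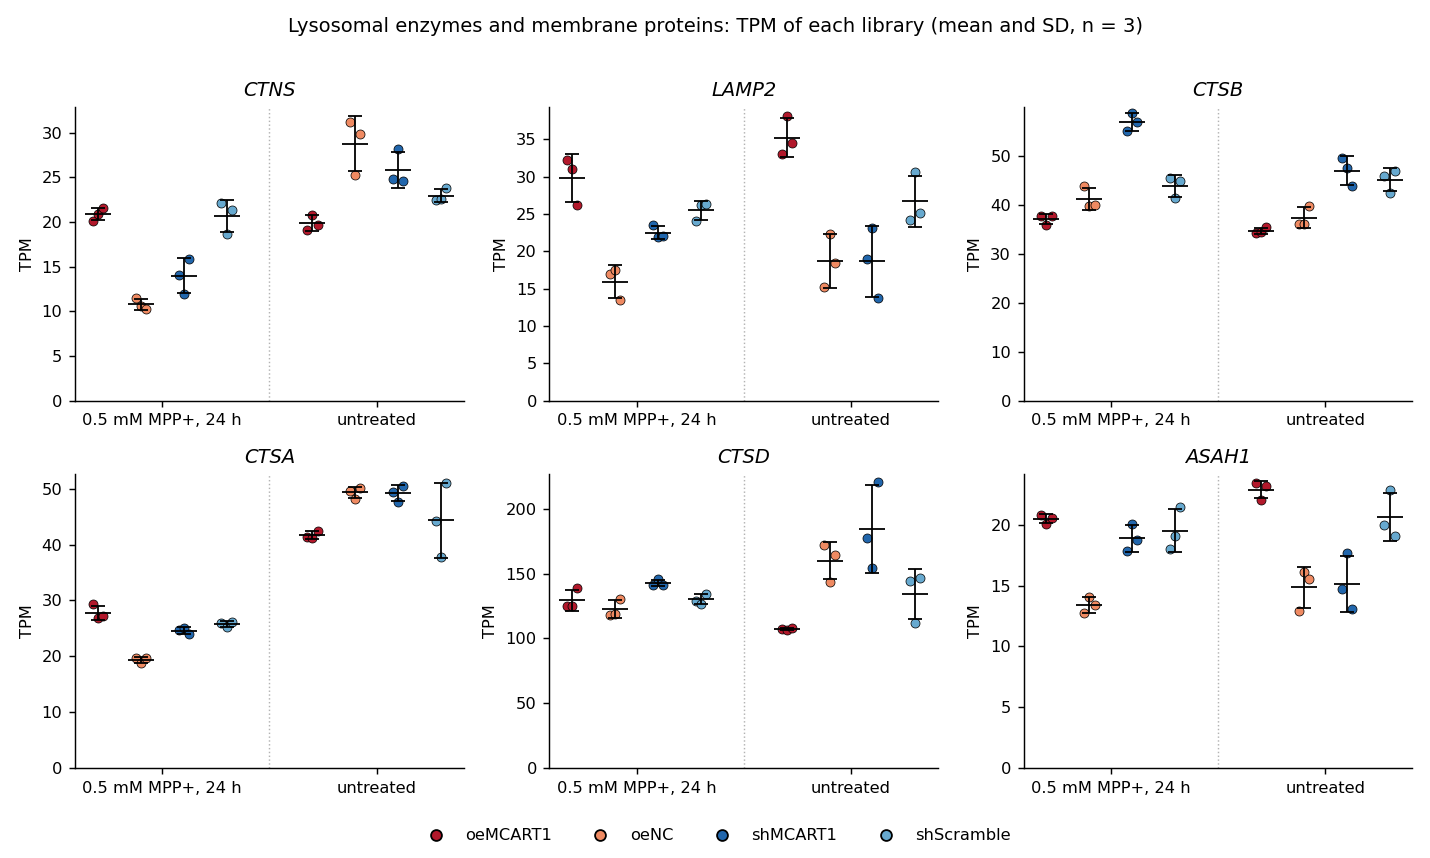
TPM of 6 enzymes and membrane proteins in each library (points), with the mean and SD of 3 libraries, for the 4 constructs with 0.5 mM MPP+ for 24 h and untreated; the y axes start at 0. CTNS was at 20.9 TPM in oeMCART1 cells and 10.8 TPM in oeNC cells with MPP+, and at 19.9 TPM in oeMCART1 cells and 28.8 TPM in oeNC cells without it.

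Without MPP+, overexpression divided the lysosomal genes. Of the 36 members, 11 rose and 15 fell in oeMCART1 cells against oeNC cells, 72.2% called against 48.2% of the 14703 genes tested (33.5% higher and 14.7% lower), with a median change of -0.11 for the members and 0.16 for all genes. The hydrolases leaned to lower levels, with 2 higher and 7 lower, and so did the V0 sector, with 1 higher and 4 lower. The V1 sector leaned the other way, with 5 higher and 1 lower, and the membrane proteins were even, with 2 and 2. Median-of-ratios scaling gave 8 higher and 22 lower members, with the V0 sector at 0 and 4 and the V1 sector at 4 and 1, beside 26.2% of all genes higher and 26.1% lower. The count of called members was 16 without oeMCART1 replicate 2, 17 without oeMCART1 replicate 3, 14 without oeNC replicate 1 and 16 without oeNC replicate 3. Over all genes 4901, 4975, 4005 and 4774 were called in these fits in turn, against 7082 in the full fit.

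Among the enzymes and membrane proteins of untreated cells, NEU1 measured 18.8, 18.1 and 17.7 TPM in oeMCART1 cells, against 27.5, 24.3 and 27.4 TPM in oeNC cells. NEU1 fell, with no overlap between the groups and a log2 change of -0.51 (SE 0.09, limma adjusted p = 0.00422). CTNS had 19.2, 20.8 and 19.7 TPM in oeMCART1 cells, against 31.2, 25.3 and 29.9 TPM in oeNC cells. For CTNS every oeMCART1 library lay below every oeNC library, and the log2 change was -0.51 (SE 0.09, limma adjusted p = 0.00436). CTNS lay on the other side of its control than it did with MPP+. LAMP2 was at 33.1, 38.1 and 34.5 TPM in oeMCART1 cells, against 15.2, 22.4 and 18.4 TPM in oeNC cells. The LAMP2 groups did not overlap, and the log2 change was 0.89 (SE 0.18, limma adjusted p = 0.00485). ASAH1 measured 23.5, 22.1 and 23.2 TPM in oeMCART1 cells, against 12.9, 16.1 and 15.6 TPM in oeNC cells. ASAH1 rose, with no overlap between the groups and a log2 change of 0.60 (SE 0.12, limma adjusted p = 0.005). For LAMP2 and ASAH1 the direction was the one seen with MPP+. With the trend on GC content removed (described further on), ASAH1 was called in neither comparison, at -0.08 with MPP+ and -0.12 without. LAMP2 then kept its call only with MPP+. SCARB2 had 19.04, 18.8 and 19.2 TPM in oeMCART1 cells, against 7.81, 12.5 and 10.6 TPM in oeNC cells. For SCARB2 every oeMCART1 library lay above every oeNC library, and the log2 change was 0.84 (SE 0.18, limma adjusted p = 0.00546). GAA was at 22.4, 21.02 and 21.7 TPM in oeMCART1 cells, against 29.6, 24.5 and 30.2 TPM in oeNC cells. The GAA groups did not overlap, and the log2 change was -0.35 (SE 0.13, limma adjusted p = 0.0424). Further members that fell were CTSD, the main aspartic protease of the lysosome, at -0.57 (SE 0.13, limma adjusted p = 0.00727), NAGLU, which degrades heparan sulfate, PSAP, HEXA, CTSF and MCOLN1. CTSL, a cysteine protease, rose by 0.24 on the log2 scale.

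In untreated oeMCART1 cells the calls in V1 were mostly higher and those in V0 mostly lower, and the sectors were not tested against each other. With the trend on GC content removed, V1 had 2 subunits higher and 1 lower and V0 had 0 higher and 2 lower. ATP6V1E1 measured 114, 116 and 111 TPM in oeMCART1 cells, against 63.02, 79.6 and 68.6 TPM in oeNC cells. ATP6V1E1 rose, with no overlap between the groups and a log2 change of 0.69 (SE 0.13, limma adjusted p = 0.00436). ATP6V1A had 33.8, 33.3 and 34.5 TPM in oeMCART1 cells, against 13.1, 22.2 and 18.7 TPM in oeNC cells. For ATP6V1A every oeMCART1 library lay above every oeNC library, and the log2 change was 0.91 (SE 0.20, limma adjusted p = 0.0059). The catalytic and a stalk subunit rose in the same cells. ATP6V1D was at 36.2, 36.9 and 37.6 TPM in oeMCART1 cells, against 18.6, 23.6 and 16.6 TPM in oeNC cells. The ATP6V1D groups did not overlap, and the log2 change was 0.89 (SE 0.21, limma adjusted p = 0.00761). ATP6V1G1 measured 92.7, 89.8 and 88.5 TPM in oeMCART1 cells, against 51.5, 70.7 and 59.9 TPM in oeNC cells. ATP6V1G1 rose, with no overlap between the groups and a log2 change of 0.58 (SE 0.15, limma adjusted p = 0.011). ATP6V1F alone of the V1 sector fell, by 0.32 on the log2 scale. ATP6AP2 had 66.6, 69.6 and 68.2 TPM in oeMCART1 cells, against 31.4, 48.1 and 39.8 TPM in oeNC cells. For ATP6AP2 every oeMCART1 library lay above every oeNC library, and the log2 change was 0.78 (SE 0.19, limma adjusted p = 0.00873). ATP6AP1 was at 131, 121 and 129 TPM in oeMCART1 cells, against 180.4, 149 and 172 TPM in oeNC cells. The ATP6AP1 groups did not overlap, and the log2 change was -0.39 (SE 0.11, limma adjusted p = 0.0137). The accessory subunits went in opposite directions. ATP6V0B measured 193, 186 and 185 TPM in oeMCART1 cells, against 336, 249 and 299 TPM in oeNC cells. ATP6V0B fell, with no overlap between the groups and a log2 change of -0.64 (SE 0.16, limma adjusted p = 0.00932). ATP6V0C changed by -0.52 (SE 0.14, limma adjusted p = 0.0103) and ATP6V0D1 by -0.41 (SE 0.11, limma adjusted p = 0.0142), while ATP6V0E1, a small V0 subunit, rose by 0.22.

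**Figure D2:**
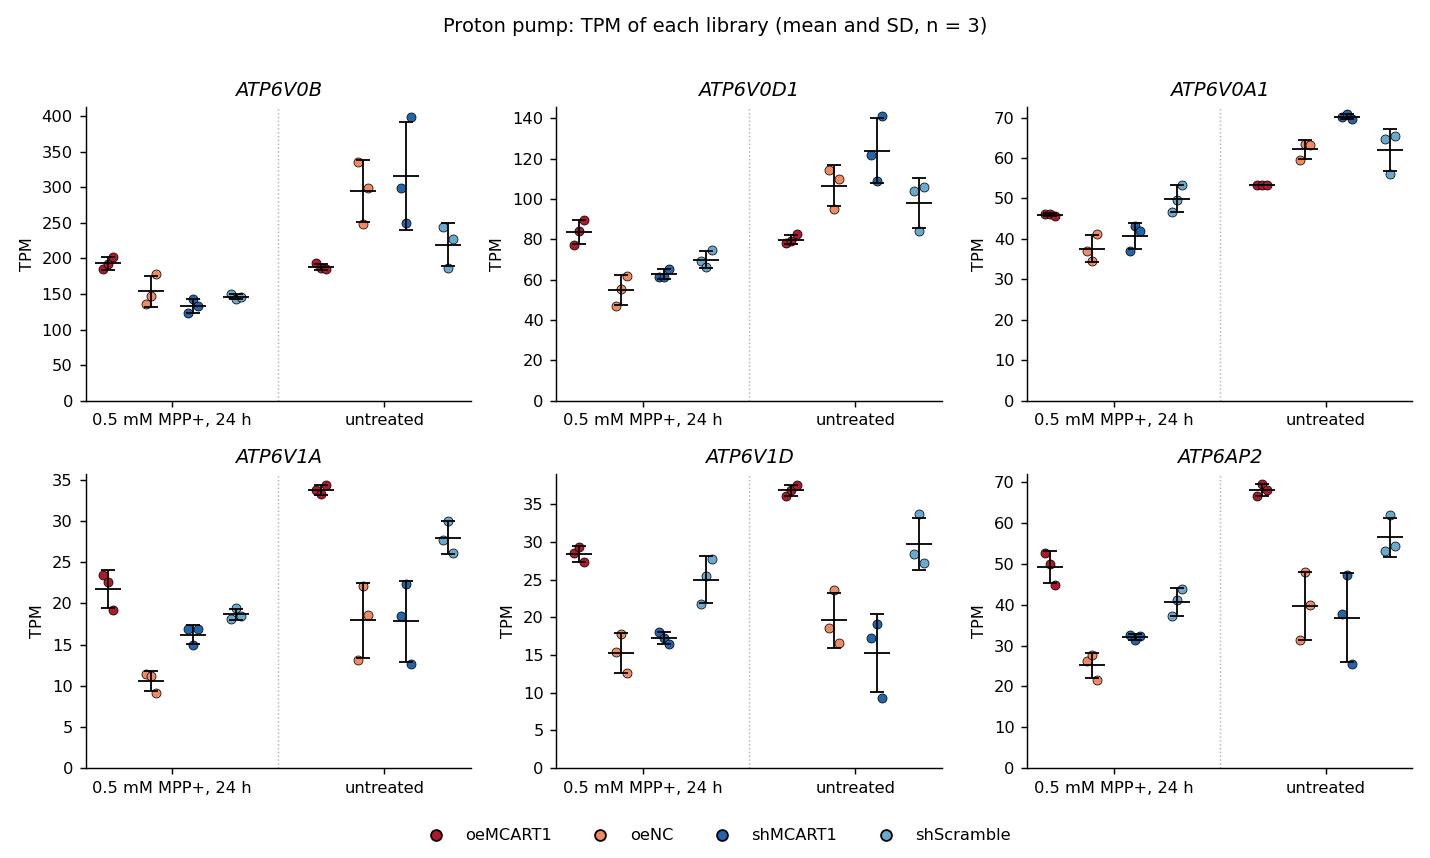
TPM of 6 genes of the proton pump in each library (points), with the mean and SD of 3 libraries, for the 4 constructs with MPP+ and untreated. ATP6V0B lay above its control with MPP+ (193 TPM in oeMCART1 and 154 TPM in oeNC cells) and below it without (188 TPM in oeMCART1 and 295 TPM in oeNC cells), whereas ATP6V1A lay above it in both (21.8 TPM in oeMCART1 and 10.6 TPM in oeNC cells with MPP+, 33.8 TPM in oeMCART1 and 18.0 TPM in oeNC cells without).

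Whether the overexpression effect itself differed with the toxin was tested as the log2 change with MPP+ minus the log2 change without it, a difference of contrasts that were each taken within 1 table. It was higher for 14 members and lower for 0, 38.9% called against 17.8% of 15653 genes (12.6% higher and 5.24% lower). In limma 17 members and 4592 of the 15653 genes had an unadjusted p below 0.05. Of the called members 6 were hydrolases, 3 membrane proteins, 4 of the 5 V0 subunits and 1 an accessory subunit, and no V1 subunit was called. Across the 36 members this difference varied with transcript GC content, at a Spearman correlation of 0.60 (described further on). The median difference was 0.82 for V0, 0.06 for V1 and 0.05 for all genes. CTNS had the largest, 1.40 (SE 0.13, limma adjusted p = 2e-06), with its level above the control with MPP+ and below it without. Among the enzymes, CTSA differed by 0.74 (SE 0.11, limma adjusted p = 0.000102), CTSD by 0.65 (SE 0.15, limma adjusted p = 0.00462) and HEXA by 0.56 (SE 0.10, limma adjusted p = 0.000464). In the V0 sector ATP6V0D1 differed by 1.02 (SE 0.15, limma adjusted p = 0.000132), ATP6V0B by 0.97 (SE 0.19, limma adjusted p = 0.00151) and ATP6V0C by 0.82 (SE 0.16, limma adjusted p = 0.00115). CTNS differed by 1.25 to 1.49 over 20 alternative settings and ATP6V0D1 by 0.86 to 1.11, called in all 20. Median-of-ratios scaling kept 6 of the 14, namely CTNS, CTSA and the same 4 V0 subunits, and added SCARB2 as lower (6.53% of all genes were then higher and 8.71% lower). The summed level of the V0 genes was 562 ± 22.7 TPM in oeMCART1 cells and 435 ± 48.8 TPM in oeNC cells with MPP+, and 595 ± 7.94 TPM in oeMCART1 cells and 809 ± 76.8 TPM in oeNC cells without (SD, n = 3 each). As printed, the sums in oeMCART1 cells lay closer together than those in oeNC cells. The levels with and without MPP+ were normalized separately, over 36741 and 63241 genes, so a shift of either construct with MPP+ was not tested.

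Knockdown under MPP+ changed members in both directions, by between -0.54 and 0.37 on the log2 scale. Of the 36 members, 6 rose and 8 fell in shMCART1 cells against shScramble cells, 38.9% called against 33.1% of 14895 genes (10.8% higher and 22.2% lower), a share near that of all genes, with a median change of -0.02 for the members and -0.08 for all genes. All 4 hydrolases that were called rose, and the 3 membrane proteins that were called fell. In the pump 1 V0 subunit fell, 1 V1 subunit rose and 3 fell, and the accessory subunits were split. Median-of-ratios scaling gave 11 members higher and 3 lower, with 8 hydrolases higher and 0 lower and 1 membrane protein lower, against 17.6% of all genes higher and 15% lower.

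The hydrolases that rose in shMCART1 cells with MPP+ were led by a cysteine protease. CTSB had 55.1, 58.7 and 56.8 TPM in shMCART1 cells, against 45.5, 41.3 and 44.8 TPM in shScramble cells. For CTSB every shMCART1 library lay above every shScramble library, and the log2 change was 0.37 (SE 0.06, limma adjusted p = 0.000796). PSAP was at 316, 316 and 305 TPM in shMCART1 cells, against 278, 271 and 279 TPM in shScramble cells. The PSAP groups did not overlap, and the log2 change was 0.18 (SE 0.04, limma adjusted p = 0.00389). NAGLU measured 28.7, 32.1 and 29.6 TPM in shMCART1 cells, against 24.5, 24.1 and 21.96 TPM in shScramble cells. NAGLU rose, with no overlap between the groups and a log2 change of 0.34 (SE 0.08, limma adjusted p = 0.00583). GAA had 50.5, 45.6 and 48.5 TPM in shMCART1 cells, against 44.3, 39.04 and 40.5 TPM in shScramble cells. For GAA every shMCART1 library lay above every shScramble library, and the log2 change was 0.22 (SE 0.06, limma adjusted p = 0.0204). Among the membrane proteins the calls went the other way. CTNS was at 14.1, 11.98 and 15.9 TPM in shMCART1 cells, against 22.1, 18.7 and 21.3 TPM in shScramble cells. The CTNS groups did not overlap, and the log2 change was -0.54 (SE 0.10, limma adjusted p = 0.0017). SCARB2 measured 19.01, 18.4 and 17.2 TPM in shMCART1 cells, against 22.7, 22.6 and 22.9 TPM in shScramble cells. SCARB2 fell, with no overlap between the groups and a log2 change of -0.30 (SE 0.07, limma adjusted p = 0.00738). MCOLN1 changed by -0.25 (SE 0.07, limma adjusted p = 0.0232). CTNS kept its call in all 14 alternative settings, between -0.63 and -0.43, and CTSB between 0.33 and 0.48.

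Of the 15 pump genes 7 were called under knockdown with MPP+, 4 of them among the 8 V1 subunits. ATP6V1G1 had 55.6, 54.7 and 60.97 TPM in shMCART1 cells, against 73.9, 79.7 and 84.8 TPM in shScramble cells. For ATP6V1G1 every shMCART1 library lay below every shScramble library, and the log2 change was -0.47 (SE 0.06, limma adjusted p = 0.000402). ATP6V1F was at 692, 717 and 688 TPM in shMCART1 cells, against 633, 578 and 592 TPM in shScramble cells. The ATP6V1F groups did not overlap, and the log2 change was 0.22 (SE 0.05, limma adjusted p = 0.00383). ATP6V1D measured 18.03, 17.2 and 16.5 TPM in shMCART1 cells, against 21.7, 25.5 and 27.8 TPM in shScramble cells. ATP6V1D fell, with no overlap between the groups and a log2 change of -0.51 (SE 0.11, limma adjusted p = 0.00562). ATP6V1E1 of the peripheral stalk was not called, at -0.03 (SE 0.07, limma adjusted p = 0.761). ATP6V1B2 had 29.8, 28.5 and 32.04 TPM in shMCART1 cells, against 35.4, 37.8 and 36.5 TPM in shScramble cells. For ATP6V1B2 every shMCART1 library lay below every shScramble library, and the log2 change was -0.27 (SE 0.07, limma adjusted p = 0.00978). ATP6AP1 was at 161, 154 and 154 TPM in shMCART1 cells, against 141, 130.3 and 131 TPM in shScramble cells. The ATP6AP1 groups did not overlap, and the log2 change was 0.22 (SE 0.05, limma adjusted p = 0.00378). ATP6AP2 measured 32.7, 31.4 and 32.3 TPM in shMCART1 cells, against 37.2, 41.1 and 43.9 TPM in shScramble cells. ATP6AP2 fell, with no overlap between the groups and a log2 change of -0.33 (SE 0.09, limma adjusted p = 0.017). As with overexpression in untreated cells, the accessory subunits went in opposite directions. With the trend on GC content removed (described further on), ATP6AP1 kept its call in both of these comparisons and ATP6AP2 lost it in both. ATP6V0A1 changed by -0.29 (SE 0.08, limma adjusted p = 0.0131).

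In untreated cells the knockdown comparison called 10 members higher and 9 lower, 52.8% against 34.2% of 14703 genes (8.64% higher and 25.6% lower), with a median of 0.16 for the members and -0.15 for all genes. By group, 6 hydrolases rose and 1 fell, 2 membrane proteins fell, 3 V0 subunits rose, and 5 V1 subunits fell with none higher. These counts rest on single libraries: 0 members were called without shScramble replicate 2, when 2 genes were called in all by limma and 5106 had an unadjusted p below 0.05. Without shMCART1 replicate 1 the count was 3, without shMCART1 replicate 3 it was 2 and without shScramble replicate 1 it was 8. The all-gene calls were then 2253, 971 and 3203 in turn, against 5035 in the full fit. A limma fit of only those groups called 2 members, both lower, with 19 at an unadjusted p below 0.05, a fit without the filter on low values called 1 higher and 2 lower, and median-of-ratios scaling gave 20 higher and 7 lower. Of all genes tested, the fit of only those groups called 12.9%, the fit without the filter 3.92%, and the rescaled fit 20.3% higher and 20.2% lower. In the limma fit of only those groups 5726 of 13893 genes had an unadjusted p below 0.05.

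For the enzymes of untreated cells, GLB1, the lysosomal beta-galactosidase, had 43.3, 42.4 and 43.2 TPM in shMCART1 cells, against 36.6, 31.8 and 34.5 TPM in shScramble cells. For GLB1 every shMCART1 library lay above every shScramble library, and the log2 change was 0.32 (SE 0.09, limma adjusted p = 0.0225). ASAH1 was at 14.7, 17.7 and 13.1 TPM in shMCART1 cells, against 19.95, 22.9 and 19.1 TPM in shScramble cells. The ASAH1 groups did not overlap, and the log2 change was -0.43 (SE 0.12, limma adjusted p = 0.0242). ASAH1 was the hydrolase that fell. NAGLU measured 21.7, 19.1 and 27.4 TPM in shMCART1 cells, against 16.8, 15.6 and 17.7 TPM in shScramble cells. NAGLU rose, with no overlap between the groups and a log2 change of 0.41 (SE 0.12, limma adjusted p = 0.026). CTSD had 177, 154 and 221 TPM in shMCART1 cells, against 144, 112 and 147 TPM in shScramble cells. For CTSD every shMCART1 library lay above every shScramble library, and the log2 change was 0.45 (SE 0.13, limma adjusted p = 0.0279). In CTSD the highest of the shMCART1 libraries was replicate 3, as it was in NAGLU. SCARB2 was at 11.98, 13.5 and 8.44 TPM in shMCART1 cells, against 17.5, 18.6 and 15.01 TPM in shScramble cells. The SCARB2 groups did not overlap, and the log2 change was -0.57 (SE 0.18, limma adjusted p = 0.0313). GAA measured 37.3, 33.3 and 47.9 TPM in shMCART1 cells, against 31.1, 27.3 and 32.2 TPM in shScramble cells. GAA rose, with no overlap between the groups and a log2 change of 0.36 (SE 0.13, limma adjusted p = 0.0492). GAA rose in both knockdown comparisons and fell in both overexpression comparisons, but with the trend on GC content removed (described further on) it was called in none of the 4, at 0.09 and 0.08 under knockdown with and without MPP+ and at -0.02 in both overexpression comparisons.

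For the pump of untreated cells, ATP6V1G1 had 53.5, 60.5 and 38.4 TPM in shMCART1 cells, against 78.6, 90.4 and 78.4 TPM in shScramble cells. For ATP6V1G1 every shMCART1 library lay below every shScramble library, and the log2 change was -0.71 (SE 0.15, limma adjusted p = 0.0148). ATP6V1D was at 17.3, 19.2 and 9.33 TPM in shMCART1 cells, against 28.4, 33.7 and 27.3 TPM in shScramble cells. The ATP6V1D groups did not overlap, and the log2 change was -0.97 (SE 0.21, limma adjusted p = 0.015). In both genes shMCART1 replicate 3 was the lowest library. ATP6AP1 measured 191, 176 and 213 TPM in shMCART1 cells, against 159, 127 and 163 TPM in shScramble cells. ATP6AP1 rose, with no overlap between the groups and a log2 change of 0.37 (SE 0.11, limma adjusted p = 0.0261). ATP6V1A had 18.4, 22.4 and 12.7 TPM in shMCART1 cells, against 27.7, 30.1 and 26.1 TPM in shScramble cells. For ATP6V1A every shMCART1 library lay below every shScramble library, and the log2 change was -0.65 (SE 0.20, limma adjusted p = 0.0283). ATP6V1A had not been called under knockdown with MPP+. ATP6V1C1 was at 7.67, 8.29 and 3.73 TPM in shMCART1 cells, against 9.86, 20.3 and 11.7 TPM in shScramble cells. The ATP6V1C1 groups did not overlap, and the log2 change was -0.98 (SE 0.30, limma adjusted p = 0.0286). ATP6AP2 measured 37.9, 47.3 and 25.5 TPM in shMCART1 cells, against 53.2, 62.02 and 54.4 TPM in shScramble cells. ATP6AP2 fell, with no overlap between the groups and a log2 change of -0.64 (SE 0.19, limma adjusted p = 0.0288). ATP6V0B, at 0.51 (SE 0.16, limma adjusted p = 0.0329), ATP6V0C and ATP6V0D1 were the V0 subunits that rose. ATP6V1D, ATP6V1G1 and ATP6AP2 were lower in shMCART1 cells and higher in oeMCART1 cells than their controls both with and without MPP+, and SCARB2 likewise, although the knockdown calls in untreated cells depend on single libraries as given above. With the trend on GC content removed (described further on), only ATP6V1D of these genes kept its call in every comparison of MCART1. ATP6V1G1 then kept it only under knockdown, and ATP6AP2 only under overexpression with MPP+. SCARB2 kept it only under overexpression without MPP+ and was called lower under overexpression with MPP+.

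The knockdown effect with MPP+ minus that without differed for 2 members, both lower, 5.56% against 3.87% of 15653 genes (2.15% lower). In limma 16 members and 3528 of the 15653 genes had an unadjusted p below 0.05. CTNS differed by -0.70 (SE 0.13, limma adjusted p = 0.00666) and ATP6V0A1 by -0.47 (SE 0.10, limma adjusted p = 0.0149). In untreated cells CTNS was at 24.8, 28.2 and 24.7 TPM in shMCART1 cells, against 22.4, 22.6 and 23.8 TPM in shScramble cells, a change that was not called (0.17, SE 0.09, limma adjusted p = 0.181). ATP6V0A1 was at 37.1, 43.3 and 41.9 TPM in shMCART1 cells, against 46.7, 49.7 and 53.3 TPM in shScramble cells with MPP+, and at 70.2, 70.8 and 69.7 TPM in shMCART1 cells, against 64.7, 56.02 and 65.4 TPM in shScramble cells without. A limma fit of only those groups called 0 members and 0.82% of all genes. In that fit 8 members and 2842 of 14872 genes had an unadjusted p below 0.05. The count of called members was 11 without untreated shMCART1 replicate 2, when 2466 of 15606 genes were called in all. It was 1 without shMCART1 replicate 1 or shScramble replicate 3 with MPP+, when 266 and 265 genes were called in all.

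**Figure D3:**
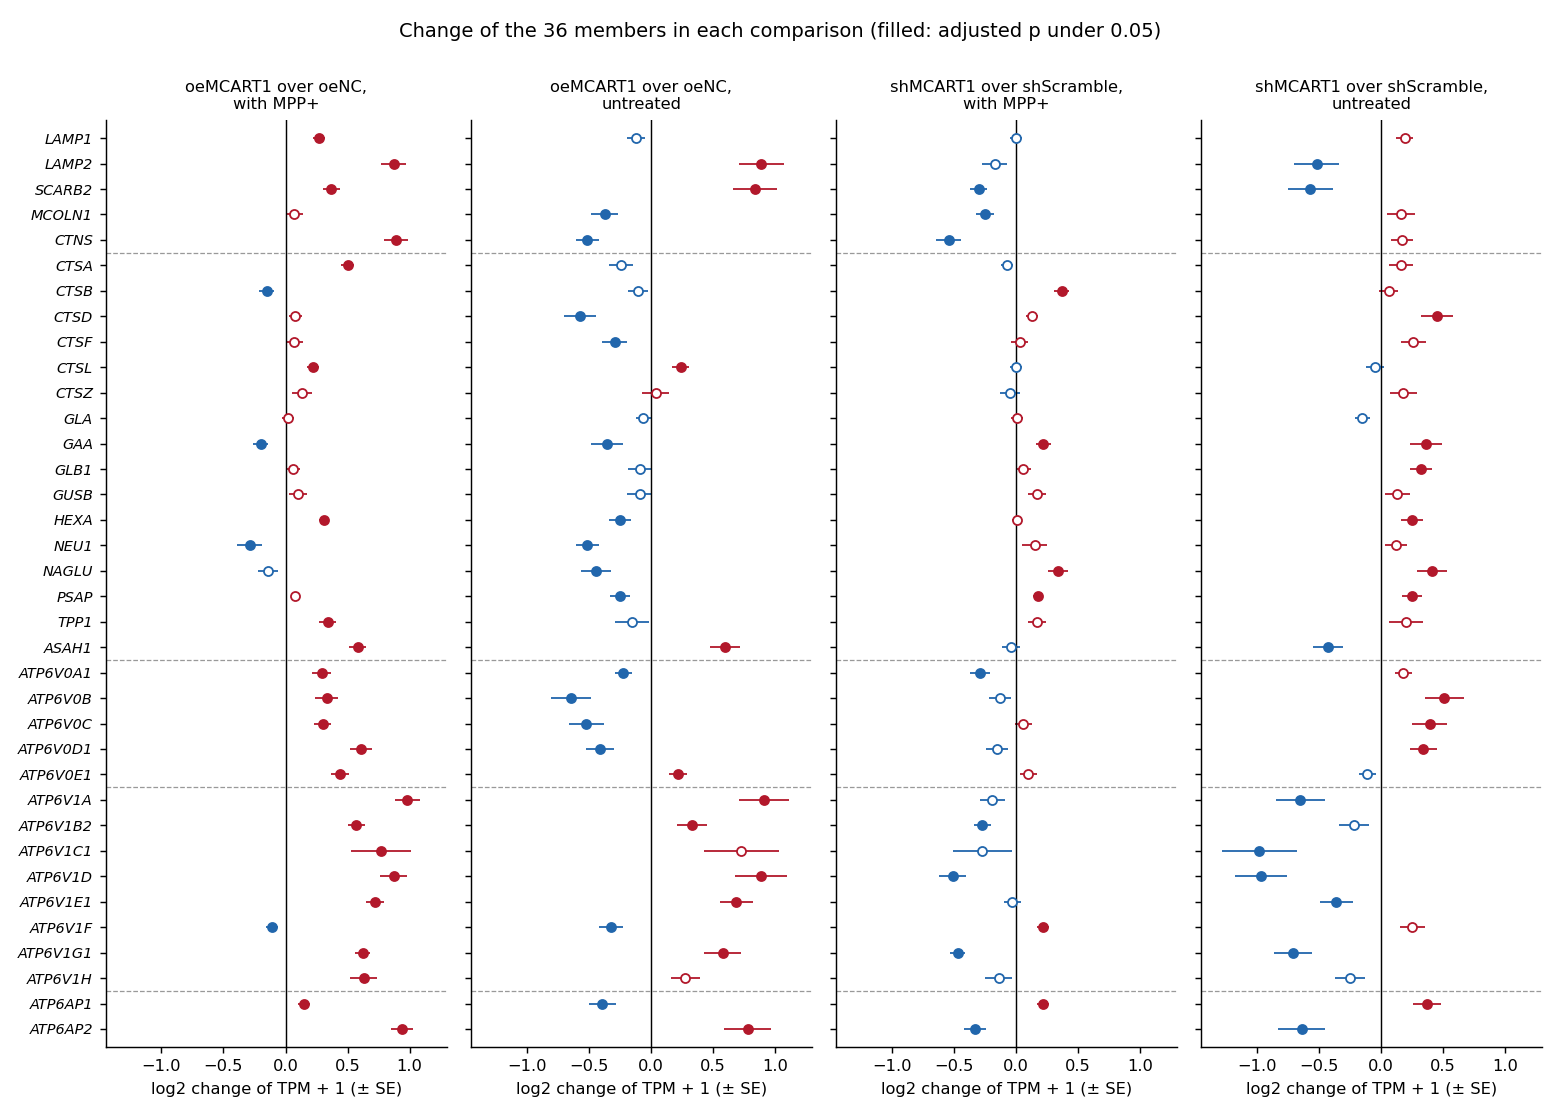
Log2 change of TPM + 1 (point) with its SE (line) for the 36 members in the 4 comparisons of MCART1, where filled points have a limma adjusted p under 0.05, red is higher and blue is lower. From top to bottom stand membrane proteins, hydrolases, V0, V1 and accessory subunits, and the V0 subunits lie right of 0 under overexpression with MPP+ and, but for ATP6V0E1, left of 0 without it.

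The control constructs were compared with each other because each effect above rests on one of them. With MPP+, 0 members were higher and 21 lower in oeNC cells than in shScramble cells, 58.3% against 47.9% of 14895 genes (5.13% higher and 42.8% lower), with a median of -0.27 for the members and -0.25 for all genes. Median-of-ratios scaling put the all-gene median at 0.01 and gave 15 members higher and 6 lower (22.5% and 16.7% of all genes), and of the 21 calls 6 kept call and direction, 13 were lost and 2, LAMP1 and HEXA, turned higher. CTNS had 11.5, 10.6 and 10.3 TPM in oeNC cells, against 22.1, 18.7 and 21.3 TPM in shScramble cells. For CTNS every oeNC library lay below every shScramble library, and the log2 change was -0.88 (SE 0.10, limma adjusted p = 8.32e-05). CTSA was at 19.7, 18.8 and 19.8 TPM in oeNC cells, against 25.9, 25.3 and 26.2 TPM in shScramble cells. The CTSA groups did not overlap, and the log2 change was -0.39 (SE 0.05, limma adjusted p = 0.000211). ASAH1 measured 12.7, 14.1 and 13.4 TPM in oeNC cells, against 18.0, 19.1 and 21.5 TPM in shScramble cells. ASAH1 fell, with no overlap between the groups and a log2 change of -0.51 (SE 0.07, limma adjusted p = 0.000278). In all of these the level in oeMCART1 cells lay nearer to that of shScramble cells than did the level in oeNC cells. ATP6V1A had 11.4, 11.2 and 9.11 TPM in oeNC cells, against 18.1, 19.4 and 18.5 TPM in shScramble cells. For ATP6V1A every oeNC library lay below every shScramble library, and the log2 change was -0.77 (SE 0.10, limma adjusted p = 0.000143). ATP6AP2 was at 26.3, 27.6 and 21.6 TPM in oeNC cells, against 37.2, 41.1 and 43.9 TPM in shScramble cells. The ATP6AP2 groups did not overlap, and the log2 change was -0.68 (SE 0.09, limma adjusted p = 0.000206). ATP6V1G1 measured 61.1, 57.7 and 56.1 TPM in oeNC cells, against 73.9, 79.7 and 84.8 TPM in shScramble cells. ATP6V1G1 fell, with no overlap between the groups and a log2 change of -0.44 (SE 0.06, limma adjusted p = 0.000281). For CTNS with MPP+ the group means were 20.9 ± 0.687 TPM in oeMCART1 cells, 10.8 ± 0.600 TPM in oeNC cells, 14 ± 1.96 TPM in shMCART1 cells and 20.7 ± 1.81 TPM in shScramble cells (SD, n = 3 each). The comparisons share oeNC or shScramble libraries with those of MCART1 and are given side by side only. In untreated cells 1 member, CTSL, was called between the controls, 2.78% against 1.29% of 14703 genes (1.09% lower). In limma 15 members and 4511 of the 14703 genes had an unadjusted p below 0.05. Median-of-ratios scaling called 0 members and 1.33% of all genes. CTSL had 60.9, 67.4 and 65.2 TPM in oeNC cells, against 85.1, 90.3 and 86.3 TPM in shScramble cells. For CTSL every oeNC library lay below every shScramble library, and the log2 change was -0.43 (SE 0.07, limma adjusted p = 0.0259). No pump gene was called by limma there, while 8 of 15 had an unadjusted p below 0.05, beside the 4511 of 14703 genes given above.

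The changes of the members varied with the GC content of their transcripts, which was taken from the longest GENCODE 29 transcript of each gene. The median GC content was 43.6% for the V1 subunits, 56.5% for V0, 53.3% for the hydrolases and 48.9% for all genes tested with MPP+. Across the 36 members, which share libraries, the Spearman correlation of the log2 change with GC content was -0.59 for overexpression with MPP+, -0.83 for overexpression without, 0.44 for knockdown with MPP+ and 0.82 for knockdown without. Over all genes the corresponding values were -0.591, -0.795, 0.464 and 0.767. The libraries themselves differed in the same way, with correlations between a gene's deviation from the mean of its table and GC content of -0.542 to -0.369 in oeMCART1, 0.415 to 0.650 in oeNC, 0.263 to 0.398 in shMCART1 and -0.436 to -0.155 in shScramble libraries with MPP+. In untreated libraries they were -0.777 to -0.756 in oeMCART1, -0.169 to 0.608 in oeNC, 0.515 to 0.782 in shMCART1 and -0.635 to -0.015 in shScramble. For the overexpression effect with MPP+ minus that without, the correlation with GC content was 0.60 across the members and 0.213 over all genes. For the knockdown difference it was -0.75 and -0.494. The part of GC content in these results was not tested, but each comparison was repeated with the trend on GC content removed from every library. The correlations of the overexpression and knockdown differences were then 0.35 and -0.43 across the members, and 0.015 and -0.024 over all genes.

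With that trend removed, 15 of the 27 called members kept their call and direction under overexpression with MPP+, 11 of 26 under overexpression without, 10 of 14 under knockdown with MPP+ and 4 of 19 under knockdown without. Overexpression then gave 14 members higher and 5 lower with MPP+ and 4 higher and 9 lower without, and knockdown gave 8 higher and 6 lower with MPP+ and 4 higher and 2 lower without. In oeNC against shScramble cells with MPP+ the split became 6 higher and 10 lower. Of all genes, the same removal called 26.2% higher and 21.9% lower for overexpression with MPP+ and 9.3% and 8.86% without, 13.7% and 14.8% for knockdown with MPP+ and 4.22% and 6.05% without, and 13.1% and 11% between the controls with MPP+. CTNS was at 0.90 (limma adjusted p = 2.3e-05) under overexpression with MPP+, -0.35 (limma adjusted p = 0.0211) without and -0.58 (limma adjusted p = 0.00133) under knockdown with MPP+. ATP6V1D kept its direction and call in all 4 comparisons, at 0.46 (limma adjusted p = 0.0022) and 0.49 (limma adjusted p = 0.031) under overexpression with and without MPP+, and at -0.35 (limma adjusted p = 0.0184) and -0.65 (limma adjusted p = 0.02) under knockdown with and without. ATP6V1G1, by contrast, was at -0.03 under overexpression in untreated cells, and SCARB2 turned to -0.20 (limma adjusted p = 0.0251) under overexpression with MPP+. ATP6V1B2 turned to -0.36 (limma adjusted p = 0.00431) under overexpression without the toxin. Of the 14 members whose overexpression effect differed with MPP+, 12 were kept, where 24.2% of all genes were called, with ATP6V0D1 at 0.86 (limma adjusted p = 2.83e-05), ATP6V0C at 0.69 (limma adjusted p = 1.64e-05) and CTNS at 1.25 (limma adjusted p = 1.73e-06). Both knockdown differences were kept (7.07% of all genes called), as were 9 of the 21 members lower in oeNC cells with MPP+.

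**Figure D4:**
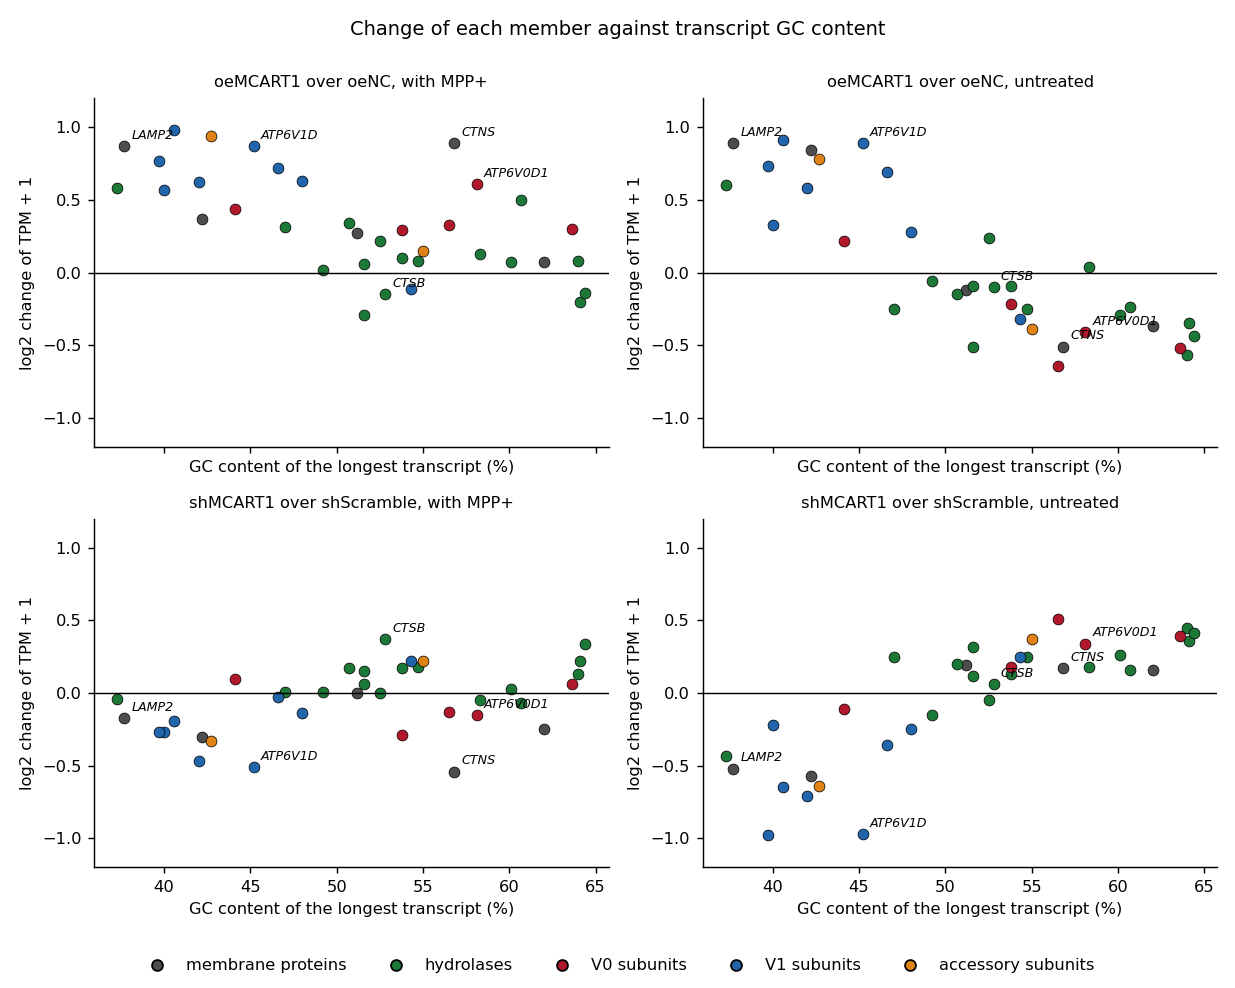
Log2 change of TPM + 1 of each member (y axis) against the GC content of its longest transcript in percent (x axis), in the 4 comparisons of MCART1. The V1 subunits have a median of 43.6% GC (39.7 to 54.3%) and the V0 subunits a median of 56.5% (44.1 to 63.6%), so the sectors overlap along x. The lowest V0 value is that of ATP6V0E1 and the highest V1 value that of ATP6V1F. CTNS at 56.8% lies above the other members of like GC content under overexpression with MPP+.

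Levels with and without MPP+ come from tables that were normalized separately, so they are set side by side without a test. The ratio of the mean with MPP+ to the mean without was above 1 in all 4 constructs for 11 of the 36 members and below 1 in all 4 for 12. Of those above 1, 10 were enzymes or membrane proteins and 1 was a pump gene, and of those below 1 4 were enzymes or membrane proteins and 8 were pump genes. Among the members above 1 were CTSZ, a carboxypeptidase, at 1.38 to 1.63, GAA at 1.22 to 1.70, NEU1 at 1.32 to 1.56 and NAGLU at 1.27 to 1.58. Among those below 1 were CTSA at 0.394 to 0.667 and GLA, alpha-galactosidase A, at 0.552 to 0.660. In the pump ATP6V0A1 ran from 0.580 to 0.863 and ATP6V0C from 0.486 to 0.901, while ATP6V1E1 was the pump gene with ratios above 1, from 1.07 to 1.34. CTNS differed by construct, with 20.9 TPM with MPP+ and 19.9 TPM without in oeMCART1 cells, 10.8 and 28.8 TPM in oeNC cells, 14 and 25.9 TPM in shMCART1 cells, and 20.7 and 22.9 TPM in shScramble cells.

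Further genes of the pathway were taken from 6 other lists, which were drawn up with earlier results of these data known and of which 109 of 110 genes were matched. Under overexpression with MPP+, where 46.7% of all genes rose and 14.2% fell with a median of 0.26, 16 of 30 tested other hydrolases rose and 3 fell, with a median of 0.28. CREG1, a secreted glycoprotein of lysosomes, was higher (45.0 against 22.4 TPM, log2 change 0.98 (SE 0.07, limma adjusted p = 1.15e-06), oeMCART1 against oeNC), and so was PPT1, palmitoyl-protein thioesterase (114 against 68.3 TPM, log2 change 0.73 (SE 0.04, limma adjusted p = 4.86e-07)). Of 19 other membrane and transport genes 11 rose and 1 fell, among them HGSNAT, which acetylates heparan sulfate (8.14 against 3.94 TPM, log2 change 0.89 (SE 0.08, limma adjusted p = 4.6e-06)). In enzyme sorting 11 of 14 rose and 1 fell, with M6PR, a mannose 6-phosphate receptor, at 0.76 (SE 0.06, limma adjusted p = 2.79e-06) and VPS26A of the retromer at 0.89 (SE 0.07, limma adjusted p = 2.33e-06). Of 8 other pump subunits 3 rose and 2 fell, and of 10 pump assembly genes 6 rose and 1 fell, among them VMA21, an assembly chaperone of V0, at 1.03 (SE 0.11, limma adjusted p = 1e-05). In the list of TFEB relatives and nutrient sensing 10 of 19 rose and 1 fell, with RRAGA, a Rag GTPase, at 0.65 (SE 0.04, limma adjusted p = 6.06e-07).

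The counts that follow stand beside 33.5% of all genes higher and 14.7% lower for overexpression without MPP+, 10.8% and 22.2% for knockdown with MPP+, and 8.64% and 25.6% for knockdown without. Without MPP+, overexpression raised 9 and lowered 4 of the 30 other hydrolases, 7 and 2 of 19 membrane and transport genes, 8 and 2 of 14 sorting genes, 0 and 2 of 7 pump subunits, 5 and 0 of 10 assembly genes and 8 and 6 of 19 TFEB and nutrient-sensing genes. CREG1 was again higher (41.4 against 21.5 TPM, log2 change 0.92 (SE 0.15, limma adjusted p = 0.0041)), SGSH, heparan sulfamidase, was lower (11.8 against 20.3 TPM, log2 change -0.74 (SE 0.12, limma adjusted p = 0.0041)), and VPS35 of the retromer was higher (42.0 against 18.7 TPM, log2 change 1.15 (SE 0.24, limma adjusted p = 0.00568)). Knockdown with MPP+ raised 6 and lowered 5 of 30 hydrolases, 1 and 5 of 19 transport genes, 1 and 7 of 14 sorting genes, 1 and 2 of 8 pump subunits, 0 and 1 of 10 assembly genes and 4 and 4 of 19 TFEB and nutrient-sensing genes. There SLC38A9, the arginine sensor of the lysosomal membrane, was lower (8.72 against 19.3 TPM, log2 change -1.05 (SE 0.19, limma adjusted p = 0.002), shMCART1 against shScramble), MAN2B1, lysosomal alpha-mannosidase, was higher (38.8 against 23.7 TPM, log2 change 0.69 (SE 0.06, limma adjusted p = 4.78e-05)), and TFE3, a relative of TFEB, was higher (29.1 against 20.9 TPM, log2 change 0.46 (SE 0.07, limma adjusted p = 0.000892)). Knockdown without MPP+, with the dependence on single libraries given above, raised 4 and lowered 5 of 30 hydrolases, 1 and 4 of 19 transport genes, 1 and 6 of 14 sorting genes, 1 and 0 of 7 pump subunits, 0 and 2 of 10 assembly genes and 2 and 5 of 19 TFEB and nutrient-sensing genes, with LAMTOR3 of the Ragulator complex at -1.07 (SE 0.22, limma adjusted p = 0.0144).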

How the data were processed

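The deposited values are TPM, per the file headers, with the 12 MPP+ libraries in one table and the 12 untreated libraries in another. The authors made the TPM before deposit, and the sources used here do not give their aligner, annotation or use of strand in counting. The submitters' processing notes name the builds GRCh38, GRCm38 and mm10 with no role for each. Per the labels, libraries were strand-specific. Entries without a gene identifier (25 untreated, 42 with MPP+) held 0% of the TPM and were left out.

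A gene was tested if 3 or more libraries of its table held at least 1 TPM, on log2(TPM + 1) in a linear model fitted in R 4.3.3 with limma 3.58.1 (trended empirical Bayes variance, 4 groups of a table in the fit, 24 libraries for differences), with Benjamini-Hochberg adjustment over all tested genes and a threshold of 0.05. Fold changes on this scale understate changes of low genes. The other steps used scipy 1.17.1, numpy 2.4.6, matplotlib 3.10.9 and pandas 2.3.3 under python 3.11.15. The fit was tested on simulated data. Transcript GC content, locations and overlaps came from GENCODE 29, and promoters from RefSeq (GRCh38.p14). Removal of the GC trend (natural spline, 5 degrees of freedom) also sets every library to the same mean.

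The members, the lists and the naming rule were chosen with earlier results of these data known. Given in full were, per comparison of MCART1, up to 5 called enzymes or membrane proteins and 5 called pump genes with the smallest adjusted p, up to 3 and 3 for the control constructs and the differences, members called in all 4 comparisons, the highest and lowest member of each list, and up to 2 called genes of each other list. Members named beyond this rule were chosen after their values were seen, and not every gene of the last part is given. Some genes of the lists are not reported here. Alternatives were median-of-ratios scaling, a lower pseudocount (0.1), a stricter filter (5 TPM), none at all, a fit of only the compared groups, a replicate block, GC trend removal alone and with the block, and leaving out each library.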

Additional observations from a re-analysis of the deposited data

Results flagged for a closer look

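For these genes the effect of a construct with MPP+ differed from its effect without, in limma's test of that difference at an adjusted p under 0.05. Each value is the log2 change with MPP+ minus the log2 change without.

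The knockdown effect differed for the members CTNS (-0.70) and ATP6V0A1 (-0.47). Outside the members it differed for NAGPA (-0.75), LAMTOR5 (0.38) and FNIP2 (0.84).

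The overexpression effect differed for 14 members, all in the positive direction, although median-of-ratios scaling kept 6 of them. Of the membrane proteins these were CTNS (1.40), MCOLN1 (0.44) and LAMP1 (0.39). Of the hydrolases they were CTSA (0.74), CTSD (0.65), HEXA (0.56), TPP1 (0.49), CTSF (0.37) and PSAP (0.33). Of the pump they were ATP6V0D1 (1.02), ATP6V0B (0.97), ATP6V0C (0.82), ATP6AP1 (0.54) and ATP6V0A1 (0.50).

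Of the other pathway genes named by the rule, the overexpression effect differed for the hydrolase ACP2 (0.67), the pump subunit ATP6V0E2 (0.61) and the pump assembly gene TM9SF1 (0.32). It differed for HGSNAT (0.70) and LITAF (-0.50) of the membrane and transport list, NAGPA (0.83) and GNPTG (0.63) of enzyme sorting, and LAMTOR1 (0.72) and RRAGA (0.47) of nutrient sensing.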

How the results depend on the processing

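Over the alternatives, 1806 of 2082 values of named genes kept direction and side of the threshold, 250 kept direction and lost the call, and 26 reversed. The alternatives differed in this. Leaving out a library gave 855, 114 and 0 in these classes in turn, and median-of-ratios scaling 121, 15 and 4. Removal of the GC trend alone gave 86 that kept both, 43 that lost the call and 11 that reversed. With the trend on GC content removed, alone or with the replicate block, ATP6V1B2 was at 0.02 under knockdown with MPP+ and ASAH1 at 0.19 without. Under overexpression with MPP+ the same removal gave ASAH1 -0.08, SCARB2 -0.20, ATP6V1B2 -0.07 and HEXA -0.01, and without MPP+ it gave ASAH1 -0.12 and ATP6V1G1 -0.03. Between the controls with MPP+ it gave ASAH1 0.00, ATP6V1G1 0.04 and ATP6V0E2 0.15. Median-of-ratios scaling reversed ATP6AP1 to -0.18 and HEXA to -0.02 under overexpression with MPP+, and TM9SF1 to 0.04 and ATP6V0E2 to 0.10 between the controls with MPP+. The cause was not tested.

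The count of called members moved most for knockdown without MPP+, where 19 became 3 with no filter on low values, 2 in a limma fit of only the compared groups, 6 with the GC trend removed and 10 with the replicate block added to that removal. For this comparison the all-gene calls went from 5035 to 1272, 1788, 1454 and 2185 in turn. Its check gene SLC25A51 stayed at -0.56 without that filter and in the fit of only the compared groups but lost its call. For overexpression without MPP+ the count of 26 became 13 with the GC trend removed, of which 11 were among the 26 in the same direction. The all-gene calls there went from 7082 to 2572. Between the untreated controls 1 call became 0 under median-of-ratios scaling (18 members at an unadjusted p under 0.05 in limma) and 0 in the fit of only the compared groups (14 at that p), against 6 with the GC trend removed and 9 with the block as well. Of all genes, 3805 of 14627 had that p in the rescaled fit and 4467 of 13867 in the fit of only the compared groups. The all-gene calls went from 189 to 195, 79, 1055 and 1337 in these fits in turn. For the knockdown difference 2 became 0 in the fit of only the compared groups (8 at an unadjusted p under 0.05), 4 with the GC trend removed and 8 with the block as well, and for the overexpression difference 14 became 7 under median-of-ratios scaling, 6 of them among the 14. In that knockdown fit 2842 of 14872 genes had such a p in limma. The all-gene calls went from 605 to 122, 1059 and 1262 for the knockdown difference, and from 2787 to 2375 for the overexpression difference.

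Leaving out 1 library at a time gave 11 to 14 called members for knockdown and 22 to 26 for overexpression with MPP+, and 0 to 24 and 14 to 26 without. The ranges were 18 to 22 between the controls with MPP+, 0 to 9 without, 1 to 11 for the knockdown difference and 12 to 14 for the overexpression difference. Over all genes the calls with MPP+ ran from 3413 to 4600 for knockdown and from 8143 to 8707 for overexpression. Without MPP+ they ran from 2 to 7247 and from 4005 to 7696. Between the controls they ran from 5627 to 6809 with MPP+ and from 6 to 2250 without. For the knockdown difference they ran from 265 to 2466, and for the overexpression difference from 2195 to 2828. SLC25A51 ran from -0.58 to -0.44 and -0.74 to -0.39 under knockdown with and without MPP+, and from 6.57 to 6.70 and 4.35 to 4.48 under overexpression.

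The labels of libraries of like number share only the number, and the correlations of their deviations were -0.073 to 0.211. Among untreated libraries, however, replicate 2 had the lowest correlation with GC content of its group in shScramble, shMCART1 and oeNC, though not in oeMCART1. The replicate block moved the limma calls over all genes between the controls from 189 to 1936 without MPP+ and from 7134 to 6990 with it. Whether such libraries were handled together was not tested. The replicate block gave 15 and 24 called members for knockdown with and without MPP+, 26 and 29 for overexpression, 20 and 11 between the controls, 5 for the knockdown difference and 13 for the overexpression difference. With the block, all-gene calls with and without MPP+ were 4604 and 6323 for knockdown and 8990 and 7658 for overexpression. They were 1097 for the knockdown difference and 3110 for the overexpression difference. TPM carries no depth, which limits what can be said of low genes such as ATP6V1C1.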

Other observations

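Between the control constructs with MPP+, the other pathway genes also stood lower in oeNC than in shScramble cells on the TPM scale, where the median of all genes was -0.25, with 42.8% of all genes lower and 5.13% higher. Under median-of-ratios scaling 22.5% of all genes were higher and 16.7% lower, and the sorting list had 1 gene higher and 4 lower. In enzyme sorting 1 of 14 tested genes was higher and 11 were lower, with a median of -0.43. VPS26A, a retromer subunit, averaged 9.20 ± 0.344 TPM in oeNC cells and 15.4 ± 0.809 TPM in shScramble cells (SD, n = 3 each), a log2 change of -0.68 (SE 0.07, limma adjusted p = 8.1e-05). AP1G1, a subunit of the clathrin adaptor that sorts enzymes at the Golgi, averaged 7.17 ± 0.145 TPM in oeNC cells and 13.8 ± 1.81 TPM in shScramble cells. Of 30 other hydrolases 1 was higher and 18 lower. Of 19 membrane and transport genes 11 were lower and 0 higher, and of 10 pump assembly genes 4 were lower and 0 higher. In the nutrient-sensing list 4 of 19 were higher and 10 lower.

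In untreated cells 1 of 14 sorting genes and 1 of 30 other hydrolases were called between the controls, and no gene of the other lists. Of all genes 1.29% were called there. NAGPA, the enzyme that uncovers the mannose phosphate tag of lysosomal enzymes, averaged 13.7 ± 1.53 TPM in oeNC cells and 7.97 ± 0.0862 TPM in shScramble cells, a log2 change of 0.70 (SE 0.11, limma adjusted p = 0.018). IDS, iduronate sulfatase, averaged 12.2 ± 1.34 TPM in oeNC cells and 17.8 ± 0.793 TPM in shScramble cells, a log2 change of -0.52 (SE 0.10, limma adjusted p = 0.0407). With MPP+ NAGPA lay the other way, at 6.04 ± 0.645 TPM in oeNC cells and 8.40 ± 0.987 TPM in shScramble cells, and whether its control difference itself differed with MPP+ was not tested.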
